A study of Mus musculus with 6 samples.

Results

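The T cell receptor signalling components are 39 named genes, covering the chains of the receptor complex, the coreceptor and surface molecules, the proximal kinases, the adaptors, the effector enzymes, the negative regulators and the NFAT transcription factors. They were chosen by gene symbol from the annotation of the array, taking the brightest probe set of a gene. Of the 39 genes, 38 had a named probe set, each of them a single one, among 19505 symbols on 22206 probe sets. The exception was Lck, the kinase that phosphorylates the receptor first, which is not analysed here.

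The study asked how Treg cells fare without either of the E2 enzymes that conjugate NEDD8, a ubiquitin-like protein whose attachment to cullins activates the cullin-RING ubiquitin ligases. Regulatory T (Treg) cells are the CD4+ T cells that keep the immune response in check and depend on the transcription factor Foxp3. There were 3 samples labelled Ube2m&Ube2f-deficient and 3 labelled control, all CD4+YFP+ cells sorted from the spleens and peripheral lymph nodes of SPF mice aged 8 to 12 weeks. By the study's text both came from female Foxp3Cre/wt mice, those behind the deficient cells being homozygous for floxed Ube2m (fl/fl) and floxed Ube2f (fl/fl) while for the control cells the text gives no other allele. In both genotypes the YFP-tagged Cre is made from 1 Foxp3 allele on the X chromosome, so the animals are mosaics in which Treg cells using the other X chromosome carry neither YFP nor the deletion, and only the YFP+ cells were profiled. Each sample pooled 2 to 3 mice, so the spread is one between pools. The sample titles say muscle, while all other labels say Treg cells.

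A T cell recognises a peptide on an MHC molecule through its antigen receptor, whose CD3 and zeta chains carry the tyrosine motifs that Lck phosphorylates. The kinase ZAP-70 binds these motifs and phosphorylates the adaptors LAT and SLP-76, which gather the enzymes that open the calcium and NFAT, the RAS and the NF-kB branches. Phosphatases, the kinase CSK, diacylglycerol kinases and adaptors of the SLAP family hold the signal down, and in Treg cells the strength of this signal is known to shape differentiation and suppressive function.

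Of the 38 measured components, 2 were higher in the deficient cells, the TEC family kinase gene Txk and the adaptor gene Themis, and 2 were lower, the adaptor gene Sla and the phosphatase gene Ptpn22. The other 34 did not pass the threshold, an adjusted p of 0.05 from limma's moderated test over all 22206 probe sets. The genes past the threshold thus made up 5.26% of the components in each direction. Over all probe sets 0.581% were called higher and 2.27% lower. Among the 9623 probe sets above a silent-gene reference the shares were 1.21% higher and 4.25% lower, so the share of components called lower was near this background. The reference was the signal of 5.62 on the log2 scale that 95% of 1091 olfactory receptor probe sets did not exceed, and all 38 components averaged more than that. Their log2 differences, deficient minus control, were positive for 19 and negative for 19 components, with a median of -0.0033 beside -0.03 over all probe sets above the reference, and their median absolute difference was 0.295 beside 0.25.

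**Figure D1:**
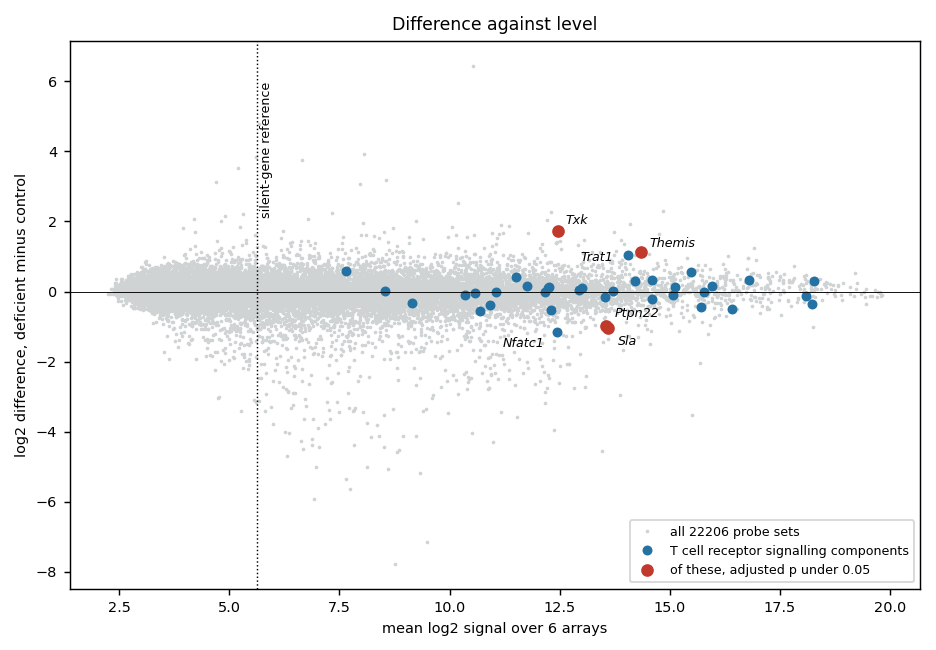
Log2 difference, deficient minus control, against the mean log2 signal over the 6 arrays for all 22206 probe sets (grey), the 38 T cell receptor signalling components (blue) and the 4 components past the threshold (red). Every component lies right of the dotted silent-gene reference at 5.62, and Txk at 1.73 and Nfatc1 at -1.17 are the components farthest above and below 0.

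The labels were checked on Ube2f, which gave log2 signals of 9.70, 9.72 and 9.82 in the deficient samples, against 11.91, 11.82 and 11.90 in the control samples (difference -2.13, adjusted p = 0.000263), while Ube2m is not analysed here. Of the T cell identity markers 12 of 15 were measured, with a mean signal of 14.58 to 14.77 in the deficient samples and 14.70 to 14.87 in the control samples and none past the threshold, although many of these markers are themselves components. Of the Treg cell markers 8 of 10 were measured, averaging 13.85 to 14.05 in the deficient samples and 14.32 to 14.48 in the control samples. Past the threshold 3 of these 8 were lower, Ctla4, Izumo1r and Ikzf2, beside 4.25% of the probe sets above the silent-gene reference. The list moved both ways, since Il2ra and Gpr83 were higher by 0.60 and 0.69 with groups apart (adjusted p = 0.135 and 0.195). Tnfrsf4 was lower with groups apart (difference -0.84, adjusted p = 0.0641), and Tnfrsf18 and Lrrc32 differed by -0.35 and -0.06 with overlapping groups. Foxp3 is not analysed here. Muscle markers were at or under the silent-gene reference for 13 of 15 genes, at a mean of 4.01 to 4.30 in the deficient and 4.10 to 4.31 in the control samples, with Neb the brightest at 6.73. All 8 macrophage and monocyte, all 9 dendritic cell and 8 of 9 B cell markers measured were at or under the reference as well, led by Vcan at 5.17, H2-Aa at 5.24 and Cd79b at 6.46 (B cell markers averaged 3.83 to 4.14 in the deficient and 4.11 to 4.39 in the control samples, with 1 lower, Cd22, itself at or under the reference), and the other lists were led by Cd8b1 at 8.55 and Slc4a1 at 7.44. The macrophage and monocyte markers averaged 3.97, 4.92 and 4.67 in the deficient samples and 3.99 to 4.16 in the control samples. Dendritic cell markers averaged 4.08 to 4.45 in the deficient and 4.03 to 4.19 in the control samples, and CD8 T cell markers 6.49 to 7.54 and 6.72 to 6.84. Each marker was set against the reference by its mean over the 6 arrays. In deficient samples 2 and 3 Lyz2 (5.88 and 5.75) and H2-Ab1 (5.73 and 5.97) exceeded the reference. So did Fcer1g (5.87) and H2-Aa (6.01) in deficient sample 2, while the control samples of these genes stayed under the reference. NK cell markers were at or under it for 5 of 7 genes, led by Gzma at 6.61, and their mean reached 6.54 in deficient sample 2 among 4.59 to 6.54 in the deficient samples, and 5.29 in control sample 1 among 4.25 to 5.29 in the control samples. The part of these cells in the results below was not tested, and without those 2 arrays the difference of Txk was 1.80 (adjusted p = 0.0381), that of Themis 1.16 (adjusted p = 0.0695), that of Sla -1.03 (adjusted p = 0.104) and that of Ptpn22 -0.98 (adjusted p = 0.123). In sorted bulk RNA, fewer cells with a transcript and less of it per cell cannot be told apart.

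The RefSeq promoter table holds windows for 3 of the 4 genes past the threshold, Txk, Themis and Ptpn22. The 250 bases before their annotated start are shown because these are the components that moved. Each of these genes has 2 windows, and only the one whose start lies nearest the annotated 5′ end of the gene was searched and is shown. Capitals mark matches, on either strand, to the NFAT core GGAAA or the ETS core GGAAG, which share their first letters but cannot match at the same place on the same strand. The coordinates are those of GRCm38.p6, namely chr5:72752778-72753027 on the minus strand for Txk, chr10:28668110-28668359 on the plus strand for Themis and chr3:103859545-103859794 on the plus strand for Ptpn22, each read 5′ to 3′ toward the gene.
Txk: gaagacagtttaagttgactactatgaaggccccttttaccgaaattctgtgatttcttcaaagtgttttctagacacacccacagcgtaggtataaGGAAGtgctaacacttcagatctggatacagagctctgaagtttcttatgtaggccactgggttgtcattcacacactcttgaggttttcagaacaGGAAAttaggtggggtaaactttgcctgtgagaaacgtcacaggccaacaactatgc
Themis: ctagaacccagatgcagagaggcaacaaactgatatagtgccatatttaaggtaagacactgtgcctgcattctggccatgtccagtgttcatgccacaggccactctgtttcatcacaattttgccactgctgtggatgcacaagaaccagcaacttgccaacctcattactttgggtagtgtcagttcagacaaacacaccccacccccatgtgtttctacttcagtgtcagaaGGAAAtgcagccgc
Ptpn22: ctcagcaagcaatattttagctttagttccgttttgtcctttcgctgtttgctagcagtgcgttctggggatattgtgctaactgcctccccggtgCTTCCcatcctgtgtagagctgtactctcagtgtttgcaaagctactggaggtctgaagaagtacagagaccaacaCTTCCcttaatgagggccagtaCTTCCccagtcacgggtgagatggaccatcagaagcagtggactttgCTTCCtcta
The Txk window held 1 match to GGAAA and 1 to GGAAG, that of Themis 1 to GGAAA and that of Ptpn22 4 to GGAAG. Over 32851 such promoter windows, GGAAA occurred in 55.6% and GGAAG in 64.1%, so most promoters carry these letters. Neither the RUNX motif TGTGGT, found in 14% of windows, nor the forkhead motif TGTTTAC, found in 3.17%, occurred in the 3 windows shown, on either strand. These matches describe letters only. Sla has no entry in the table.

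Among the proximal kinases, Txk stood apart. Txk, also known as Rlk, is a TEC family kinase that acts on phospholipase C-gamma. Its log2 signal was 13.60, 13.16 and 13.22 in the deficient samples, against 11.56, 11.12 and 12.10 in the control samples. All 3 deficient samples lay above all 3 control samples, by more than 1 log2 unit at the nearest pair. The difference of 1.73 ± 0.27 (SE, n = 3 each), or 3.32-fold, had a 95% confidence interval from 1.13 to 2.34 and an adjusted p of 0.0103. It was 1.60 with an adjusted p of 0.0576 when deficient sample 1 was left out. Its family member Tec, a neighbour of Txk on chromosome 5, differed by 0.03 (adjusted p = 0.988), and Nipal1 on the other side by 0.10 (adjusted p = 0.902).

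Zap70, the kinase recruited to the phosphorylated receptor, gave 12.04, 11.96 and 12.12 in the deficient samples, against 12.43, 12.87 and 12.39 in the control samples. The groups did not overlap, with the deficient samples lower, but the difference of -0.52 (95% confidence interval -0.96 to -0.08) did not pass (adjusted p = 0.274). Fyn, the SRC family kinase that can stand in for LCK in part, differed by 0.01, with an interval of -0.41 to 0.43.

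Within the receptor complex, no chain passed the threshold. Cd3g, the gamma chain, gave 16.08, 16.15 and 16.27 in the deficient samples, against 16.67, 16.75 and 16.61 in the control samples, a difference of -0.51 (adjusted p = 0.208). Cd3e, the epsilon chain, gave 18.07, 18.12 and 17.94 in the deficient samples, against 18.32, 18.40 and 18.49 in the control samples, a difference of -0.36 (adjusted p = 0.428). For both chains every deficient sample was below every control sample. Cd3d, the delta chain, gave 15.55, 15.25 and 15.64 in the deficient samples, against 15.63, 16.26 and 15.89 in the control samples, a difference of -0.45 (adjusted p = 0.451) with groups that overlapped by a single deficient value. Cd3d, Cd3e and Cd3g lie next to each other on chromosome 9. Cd247, the zeta chain with the most tyrosine motifs, is encoded elsewhere and gave 13.06, 12.75 and 13.05 in the deficient samples, against 12.81, 13.07 and 12.86 in the control samples. The zeta chain values overlapped and differed by 0.04, with an interval of -0.38 to 0.46.

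Scaling that depends on the signal level does not cancel in a ratio of genes on 1 array, while a shift shared by the whole array does. The log2 ratio of each CD3 chain to Cd247 on the same array was taken with that limit. It changed by -0.55 for Cd3g and by -0.49 for Cd3d, with groups that did not overlap, and by -0.40 for Cd3e with groups that did. The exact two-sided permutation p was 0.1 for Cd3g and Cd3d, the smallest that 3 against 3 arrays allow, and 0.2 for Cd3e. After Benjamini-Hochberg adjustment over 10 gene pairs compared, these were 0.167, 0.167 and 0.25. Since Cd247 itself differed by only 0.04, these ratios largely repeat the differences of the CD3 chains.

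Trat1, which encodes TRIM, a transmembrane adaptor that travels with the receptor, did not pass either. Its log2 signal was 14.45, 14.48 and 14.76 in the deficient samples, against 13.79, 13.09 and 13.71 in the control samples. The groups were apart, with the deficient samples higher. Its difference of 1.03 (95% confidence interval 0.51 to 1.55) missed the threshold narrowly, at an adjusted p of 0.0539, and passed at 0.0447 when the dimmest 40% of probe sets were left out and at 0.0217 with an intensity trend and robust variance.

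**Figure D2:**
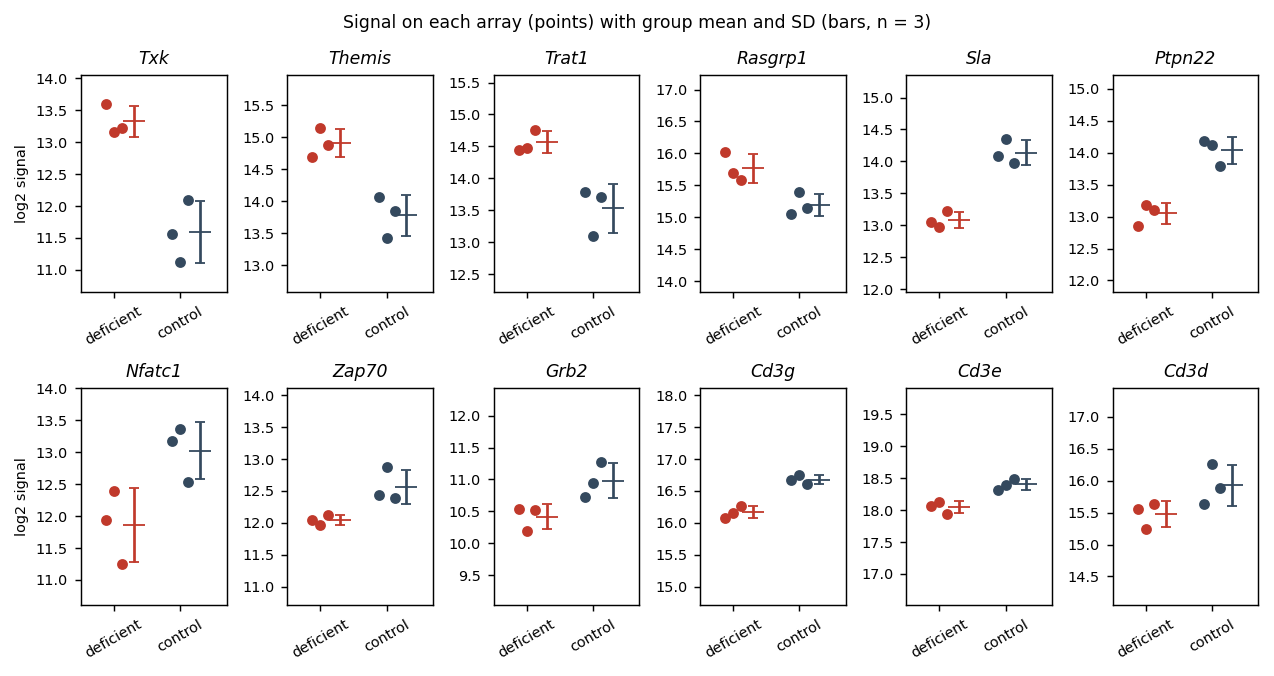
Log2 signal on each array for 12 components, deficient samples in red on the left and control samples in dark blue on the right of each panel, with bars for the group mean and SD (n = 3 each) and the same height of axis in every panel. The groups overlap only for Cd3d, and the gap between groups is widest for Txk.

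The coreceptor and surface molecules did not pass. Cd4, the coreceptor that brings LCK to the receptor and one of the antigens used for sorting, gave 15.17, 14.52 and 15.37 in the deficient samples, against 14.71, 15.06 and 15.63 in the control samples. These values overlapped, and the difference of -0.11 had an interval of -0.79 to 0.56. Cd2, an adhesion molecule that adds to the signal, differed by 0.30 with groups apart (adjusted p = 0.568). The scavenger-like receptors Cd5 and Cd6, which dampen and tune the signal, differed by -0.03 and 0.13.

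Themis was the adaptor that rose. It encodes a GRB2 partner that thymocytes need for positive selection. Its log2 signal was 14.70, 15.14 and 14.88 in the deficient samples, against 14.07, 13.43 and 13.84 in the control samples. The lowest deficient sample was above the highest control sample. The difference was 1.13 ± 0.22 (SE, n = 3 each), or 2.18-fold, with a 95% confidence interval from 0.62 to 1.63 and an adjusted p of 0.0327. Leaving out one sample kept the call only without control sample 1 (adjusted p = 0.0460), and the adjusted p was between 0.0760 and 0.117 without any other sample. Its neighbours on chromosome 10, Ptprk and 2310057J18Rik, differed by -0.20 and -0.19, neither past the threshold. Both averaged under the silent-gene reference, at 3.16 and 3.74 in the deficient and 3.36 and 3.93 in the control samples.

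Grb2, the adaptor that links LAT to SOS and binds THEMIS, gave 10.54, 10.19 and 10.52 in the deficient samples, against 10.72, 10.95 and 11.28 in the control samples. Every deficient sample was lower, with a difference of -0.57 (adjusted p = 0.273). Lat, the membrane scaffold of the pathway, and Lcp2, which encodes SLP-76, differed by 0.16 and -0.22. Grap2, the GADS adaptor that joins LAT to SLP-76, differed by 0.33, and the actin-linked adaptor Nck1 and the LCK-binding adaptor Sh2d2a by -0.10 and 0.09. These 5 adaptors had overlapping groups and adjusted p-values of 0.577 or more.

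No effector enzyme passed. In 3 of the 5 (60.0%) every deficient sample was above every control sample, beside 10.2% of all probe sets above the silent-gene reference. With 5 genes, from a list chosen with earlier results of these data known, this share shows no change of the class. Rasgrp1, the diacylglycerol-activated exchange factor that loads RAS, gave 16.02, 15.69 and 15.58 in the deficient samples, against 15.05, 15.39 and 15.15 in the control samples. Here the groups were apart, with a difference of 0.57 (95% confidence interval 0.12 to 1.01, adjusted p = 0.238). Sos1, the other RAS exchange factor, and Prkcq, which encodes protein kinase C-theta of the NF-kB branch, also had groups apart, with differences of 0.42 and 0.33 (adjusted p = 0.414 and 0.530). Plcg1, the phospholipase that makes diacylglycerol and inositol trisphosphate, and the RAC exchange factor Vav1 differed by -0.01 and 0.09 with overlapping groups.

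Both components called lower, Sla and Ptpn22, belong to the 11 negative regulators (18.2%, from 2 genes, beside 4.25% of the probe sets above the silent-gene reference). The list was chosen with earlier results of these data known, so this share shows no change of the class. Over the 11 genes, 4 differences were positive and 7 negative, with a median of -0.0533. Sla encodes SLAP, an adaptor that brings the CBL ubiquitin ligase to the receptor complex. Its log2 signal was 13.05, 12.97 and 13.22 in the deficient samples, against 14.08, 14.35 and 13.97 in the control samples. No deficient sample came within 0.5 log2 units of a control sample. The difference of -1.05 ± 0.18 (SE, n = 3 each), or 2.08-fold lower, had a 95% confidence interval from -1.47 to -0.63 and an adjusted p of 0.0193. The call held without deficient sample 3 (adjusted p = 0.0435) and without control sample 3 (adjusted p = 0.0494), and leaving out another sample gave adjusted p-values between 0.0563 and 0.0872. Sla overlaps Tg on chromosome 15, and Tg differed by -0.17 while averaging under the silent-gene reference (4.14 deficient, 4.31 control). Sla2, its homologue with a similar role, differed by -0.05 (interval -0.54 to 0.44), and the log2 ratio of Sla to Sla2 on an array averaged 2.52 in the deficient and 3.52 in the control samples, with groups apart (exact two-sided permutation p = 0.1, 0.167 after adjustment).

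Ptpn22 encodes a phosphatase that removes activating phosphates from LCK and ZAP-70. Its log2 signal was 12.86, 13.18 and 13.11 in the deficient samples, against 14.19, 14.12 and 13.80 in the control samples. The deficient samples were all lower. The difference of -0.99 ± 0.19 (SE, n = 3 each), or 1.98-fold lower, had a 95% confidence interval from -1.42 to -0.55 and an adjusted p of 0.0308. Leaving out any single sample ended the call, with adjusted p-values from 0.0522 to 0.124 and differences from -1.11 to -0.89. Its neighbours on chromosome 3, Bcl2l15 and Rsbn1, differed by -0.25 and -0.19, neither past the threshold. Bcl2l15 averaged under the silent-gene reference (2.99 deficient, 3.23 control) and Rsbn1 above it (10.27 and 10.46).

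Csk, the kinase that PTPN22 partners and that puts the inhibitory phosphate on LCK, differed by -0.16 with overlapping groups (interval -0.85 to 0.52). Pag1, the membrane anchor of CSK, gave 7.94, 7.78 and 8.15 in the deficient samples, against 7.33, 7.46 and 7.29 in the control samples. Pag1 was higher in every deficient sample, with a difference of 0.60 (adjusted p = 0.160). The phosphatases Ptpn6, which encodes SHP-1, and Ptprc, which encodes CD45 and also activates LCK, differed by 0.16 and -0.13. Ubash3a and Ubash3b, whose products dephosphorylate ZAP-70 with unequal strength, differed by -0.39 and -0.01. Of the diacylglycerol kinases, which remove the activator of RASGRP1, Dgka differed by 0.29 with groups apart and Dgkz by 0.00 with groups that overlapped (adjusted p = 0.594 and 0.997).

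At the end of the calcium branch, Nfatc1, the NFAT factor that is itself induced by the signal, gave 11.94, 12.39 and 11.25 in the deficient samples, against 13.18, 13.37 and 12.53 in the control samples. The highest deficient sample was below the lowest control sample, but the spread within each group was wide. The difference of -1.17 had a 95% confidence interval from -1.90 to -0.43 and did not pass (adjusted p = 0.126). Nfatc2 and Nfatc3, the other NFAT factors of T cells, differed by -0.33 and 0.13 with overlapping groups. The log2 ratio of Nfatc1 changed by -1.29 to Nfatc3 and by -0.84 to Nfatc2, each with groups apart (exact two-sided permutation p = 0.1, 0.167 after adjustment). Since Nfatc3 and Sla2 differed little, the ratios to them largely repeat the differences of Nfatc1 and Sla. Among the remaining pairs, Txk to Tec changed by 1.71 with groups apart (exact p = 0.1, 0.167 after adjustment). Tec also differed little, so this ratio largely repeats the difference of Txk. Ubash3a to Ubash3b, Dgka to Dgkz and Cd5 to Cd6 changed by -0.37, 0.29 and -0.16 with overlapping groups (exact p = 0.6, 0.5 and 0.2).

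**Figure D3:**
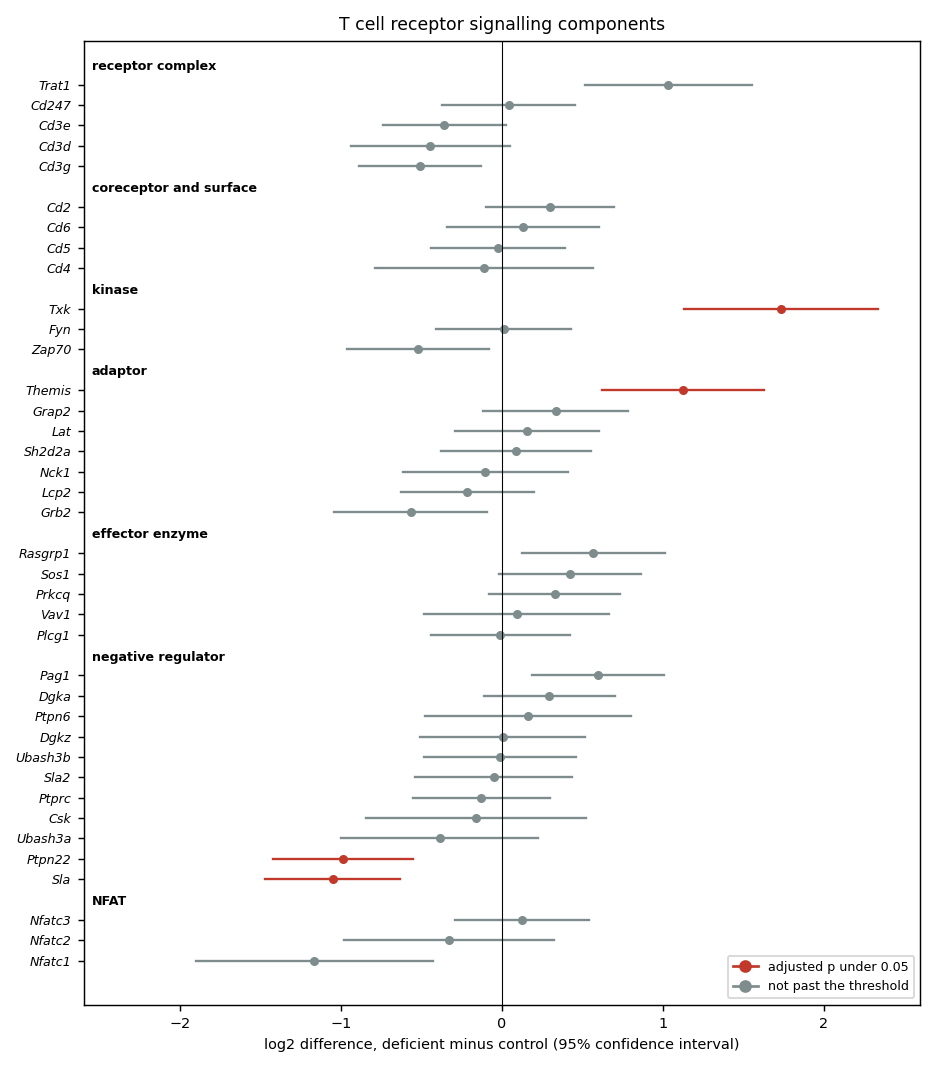
Log2 difference, deficient minus control, with its 95% confidence interval for the 38 components, grouped by role, in red where the adjusted p was under 0.05. The points run between -1.17 for Nfatc1 and 1.73 for Txk, and 34 of the 38 components are grey.

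Counted without regard to the threshold, the deficient and control samples did not overlap for 16 of the 38 components. In 9 of them the deficient samples were higher, or 23.7%, where 10.2% of all probe sets above the silent-gene reference were, and in 7 they were lower, or 18.4%, where 16.3% of those probe sets were. At the study's own rule, which asks for a fold above 1.5 at an unadjusted p below 0.05 and was applied here with limma's p, the higher components were Txk, Themis, Trat1 and Pag1, or 10.5%, beside 3.24% of all probe sets and 5.19% of those above the silent-gene reference. The lower components at that rule were Sla, Ptpn22 and Nfatc1, or 7.89%, beside 5.82% of all probe sets and 10.5% of those above the reference. For 29 of the 34 components that did not pass, the 95% confidence interval kept within a 2-fold difference either way, and for the other 5 (Trat1, Nfatc1, Grb2, Rasgrp1 and Pag1) a larger difference lies inside the interval.

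Beyond the components, 84 further genes of the pathway were listed and 71 measured. None was higher and 5 were lower past the threshold, or 7.04%, beside the 4.25% of probe sets above the silent-gene reference. At an unadjusted p under 0.05 limma gave 6 higher, or 8.45%, and 12 lower, or 16.9%, beside 7.50% and 13.4% of the probe sets above the reference, which 66 of the 71 genes exceeded. Their median difference was -0.0633.

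Ptprj, which encodes the receptor phosphatase CD148, acts on the SRC family kinases and gave 6.38, 6.50 and 5.69 in the deficient samples, against 9.75, 9.85 and 8.94 in the control samples. Its groups were far apart, and the difference of -3.32 (adjusted p = 0.000621) was a 10.0-fold lower signal. Sh2d1a, which encodes the SLAM adaptor SAP, gave 11.96, 11.94 and 12.16 in the deficient samples, against 13.31, 13.45 and 13.11 in the control samples (difference -1.27, adjusted p = 0.00704). Malt1, the paracaspase of the NF-kB branch, gave 7.63, 7.86 and 7.66 in the deficient samples, against 8.76, 8.97 and 8.92 in the control samples (difference -1.17, adjusted p = 0.00873). In these 3 genes, too, no deficient sample reached a control sample. Lax1, a LAT-like adaptor that restrains the signal, gave 12.44, 12.64 and 12.61 in the deficient samples, against 13.78, 13.45 and 13.49 in the control samples (difference -1.01, adjusted p = 0.0210). Ptpn7, a phosphatase of the MAP kinases ERK and p38, gave 11.13, 11.36 and 10.83 in the deficient samples, against 12.36, 11.92 and 12.06 in the control samples (difference -1.01, adjusted p = 0.0428). The calls of Ptprj, Sh2d1a and Malt1 held without any single sample, at adjusted p-values up to 0.00592, 0.0404 and 0.0481. That of Lax1 reached 0.0938 without deficient sample 1 and held only without deficient sample 2, and that of Ptpn7 reached 0.153 without control sample 1 and likewise held only without deficient sample 2 (adjusted p = 0.0444 and 0.0439).

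**Figure D4:**
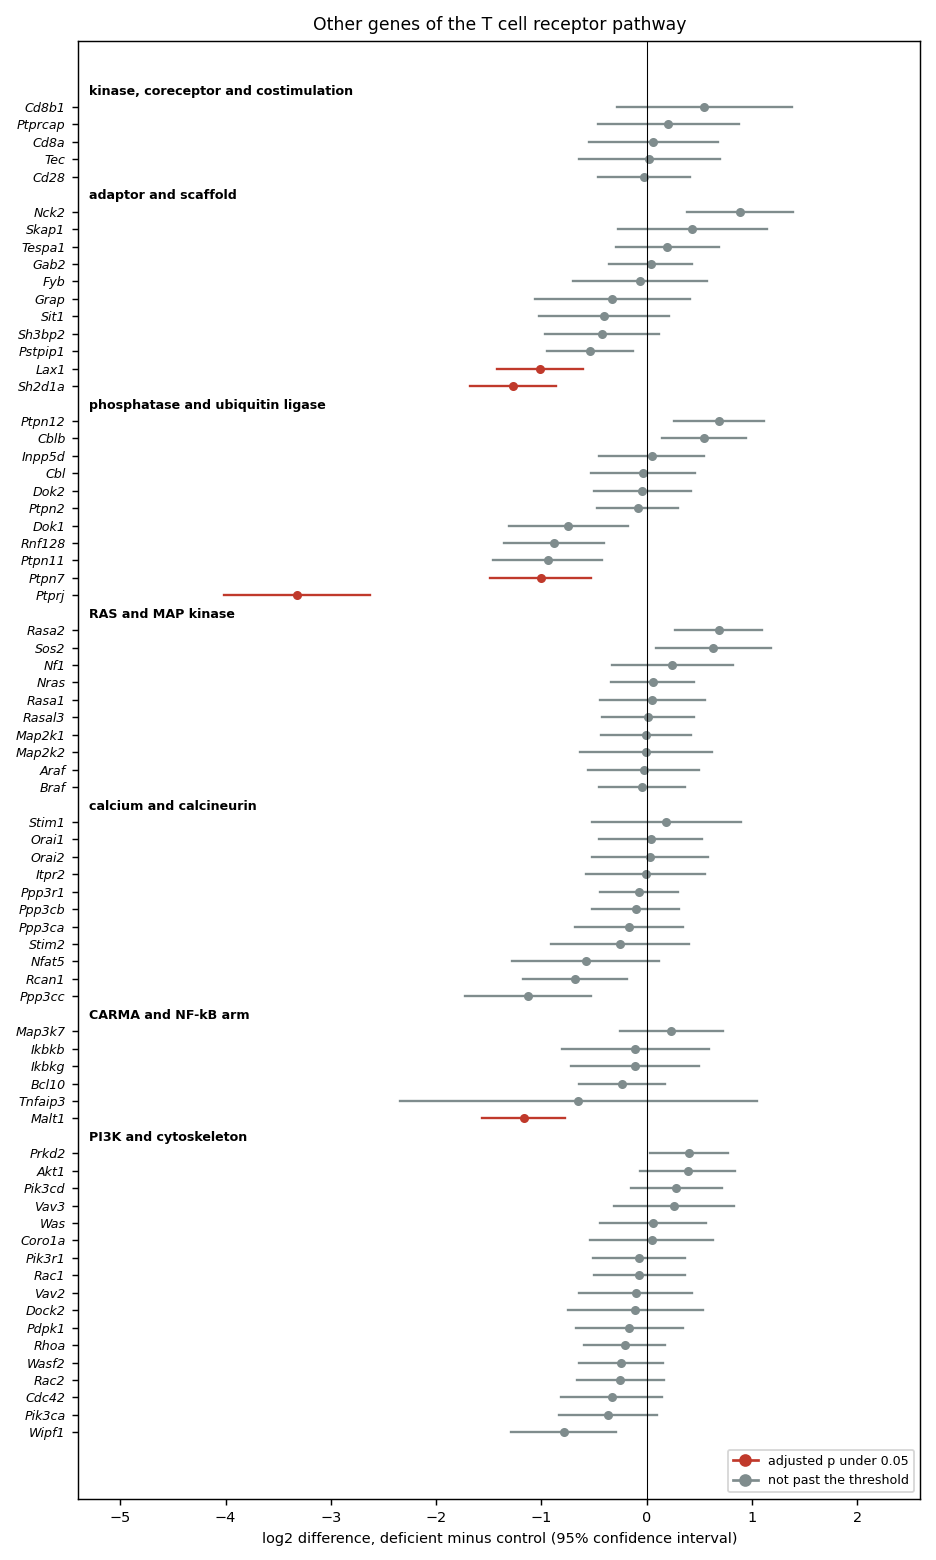
Log2 difference, deficient minus control, with its 95% confidence interval for the 71 further pathway genes measured, grouped by arm, in red where the adjusted p was under 0.05. All 5 red points lie left of 0, with Ptprj farthest at -3.32.

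By arm, 2 of the 5 lower genes, Ptprj and Ptpn7, were among 11 phosphatase and ubiquitin ligase genes measured (18.2%). Sh2d1a and Lax1 were 2 of 11 adaptors and scaffolds (18.2%), and Malt1 was 1 of 6 genes of the CARMA and NF-kB arm (16.7%). Each of these shares rests on 1 or 2 genes, beside 4.25% of the probe sets above the silent-gene reference. No gene of the RAS and MAP kinase arm, the calcium and calcineurin arm or the PI3K and cytoskeleton arm passed, nor did any kinase, coreceptor or costimulatory gene of that list. The deficient and control samples did not overlap for 5 of the 71 genes with the deficient samples higher and for 14 with the deficient samples lower, or 26.8% in all, beside 26.5% of the probe sets above the silent-gene reference.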

How the data were processed

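Treg cells were purified with beads for CD4 and by flow sorting for CD4 and YFP, after which total RNA was amplified with a pico kit, labelled with biotin and hybridised to Clariom S mouse arrays. The values are log2 signals as deposited, given to 2 decimals for every array. The submitters' processing notes name Affymetrix Expression Console 1.4. Summarisation, background correction and log base were not given in the sources used here. A log2 scale was inferred from the range of 2.06 to 19.9 with array medians of 4.89 to 5.11. Another base would change folds and not signs. Probe sets were named through the platform annotation (19572 with 1 symbol, 2634 unnamed here). Groups followed the genotype labels. No further normalisation was applied. limma 3.58.1 in R 4.3.3 (lmFit and eBayes, group only) was fitted to all 22206 probe sets of the 6 arrays with Benjamini-Hochberg adjustment, and was tested on simulated data. Each component has 1 probe set, so averaging probe sets gave no separate value. The components and gene lists were chosen with earlier results of these data known. Array values are given for components past the threshold, for those with groups apart by a difference of at least 0.5, and for the receptor chains and Cd4. Genes neighbouring those past the threshold were chosen after their values were seen. The number of arrays limits the precision. limma's p-values weigh a difference against the spread between pools, moderated by the spread over all probe sets. No batch was examined, since neither scanner files nor dates of scanning were used here. The alternatives were quantile normalisation, median centring, a filter on the dimmest 40%, a trended robust variance, the methods' t-test, a replicate block and leaving out samples.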

Additional observations from a re-analysis of the deposited data

How the results depend on the processing

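With quantile normalisation or median centring the same 4 components passed, and with the dimmest 40% of probe sets left out, or with an intensity trend and robust variance, Trat1 passed as well (3 higher, 2 lower). The methods' t-test with Benjamini-Hochberg adjustment left 0 components higher, 0 lower and 0 further pathway genes lower. Over all 22206 probe sets that test left 1 higher and 5 lower, where the main fit called 129 and 503. The labels do not say whether replicate numbers pair the samples. Correlations of deviations were -0.056, -0.243 and 0.291 for numbers 1, 2 and 3, and 0.441 for deficient sample 2 with control sample 1. With 3 arrays a group these cannot settle a pairing. The fit with a replicate block called 1 component higher (Txk) and 1 lower (Nfatc1, adjusted p = 0.0343). That fit lost Themis (0.0962), Sla (0.0663) and Ptpn22 (0.0853). Of the further genes, 4 were lower with median centring, where Ptpn7 was lost (adjusted p = 0.0637), and 4 with the replicate block, where Lax1 (0.0731) and Ptpn7 (0.0912) were lost and 1 other gene passed. Leaving out 1 sample gave 0 to 2 components higher, 0 to 1 lower and 3 to 5 further genes lower. Without deficient sample 1, 0 components were called. Leaving out control sample 1 and deficient sample 2 together gave 1 component higher, 0 lower and 2 further genes lower. Calls over all probe sets fell as well, to 46 to 81 higher and 269 to 431 lower with 1 sample left out. They were 70 and 367 with the replicate block. The median difference of the components was -0.00, ran from -0.02 to 0.05 with 1 sample left out and was 0.07 after quantile normalisation. The alternatives for Ube2f and each of the 5 further genes named were chosen after seeing the data, and Ube2f passed in all of them. Some differences near 0 changed sign, none past the threshold. With 1 sample left out they ran from -0.01 to 0.14 for Cd247, -0.33 to 0.14 for Cd4, -0.14 to 0.04 for Cd5, -0.04 to 0.23 for Cd6, -0.09 to 0.07 for Fyn, -0.29 to 0.07 for Nck1, -0.05 to 0.21 for Sh2d2a, -0.11 to 0.13 for Plcg1, -0.12 to 0.33 for Vav1, -0.04 to 0.43 for Ptpn6, -0.34 to 0.16 for Csk, -0.16 to 0.11 for Sla2, -0.15 to 0.11 for Ubash3b and -0.19 to 0.14 for Dgkz. Quantile normalisation gave 0.06 for Plcg1, 0.03 for Sla2 and 0.07 for Ubash3b, median centring -0.02 for Fyn and for Dgkz, and leaving out control sample 1 with deficient sample 2 gave -0.11 for Sh2d2a and 0.03 for Ubash3b. The causes of these changes were not tested. Depth cannot be given for arrays, and with 3 arrays a group no exact p can be under 0.1.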
